A study of Caenorhabditis elegans with 2 samples.

Results

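Described here are 168 chemoreceptor genes of the nematode Caenorhabditis elegans, out of 1309 protein-coding genes whose symbol consists of 1 of 22 family prefixes (such as str-, sra-, srh- or srw-) and a number. They were chosen by a measured value: each had the summit of a candidate region within 1000 bp of its annotated start in a chromatin immunoprecipitation sequencing (ChIP-seq) list for SPR-1. By the same rule 9153 of all 19973 nuclear protein-coding genes had a candidate. The worms, strain OP521, had the genotype unc-119(tm4063) III; wgIs521, where wgIs521 is an integrated transgene for SPR-1 carrying GFP and FLAG at its C-terminus. Hermaphrodites were collected as whole L4 larvae 50 hours after arrest as starved L1 larvae, and an anti-GFP antibody was used. There was 1 group of 2 biological replicates, with no mutant, untagged or untreated group, so each value below is set against other genes of the same lists. The chromatin came from whole animals, so a region present in a few sensory neurons and a weak region present in many cells cannot be told apart.

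SPR-1 is the worm counterpart of CoREST, a corepressor scaffold that joins a histone demethylase and histone deacetylases. Nematode chemoreceptors are seven-pass membrane proteins by which sensory neurons detect odours, tastes and pheromones. Their genes form large families that expanded by local duplication, many of them on chromosome V, and a typical receptor is expressed in very few of the ciliated head neurons. The families are grouped into the Sra, Str and Srg superfamilies and several solo families.

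The pooled list, made by the authors from both replicates, held 30000 candidate regions, which by its design include background. The thresholded list held the 5.62% of them with the highest signal, 1663 on nuclear chromosomes, with a lowest signal of 79.7, against a lowest signal of 17.6 over all candidates. The label of the thresholded list names IDR (irreproducible discovery rate), a measure of agreement between replicates, as its threshold. Signal is the authors' value for each region on a scale that no source used here states, so ranks, with 1 as the highest, are given beside it. Read depth is unknown. Because the members were selected on the pooled list, and the replicates went into that list, no measure of these regions is independent of the choice, and the counts and medians below are descriptions without a test.

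Few members had a region of high signal, and most of those that did lay beside RNA genes. A thresholded summit lay within 1000 bp of 10 of the 168 members (5.95%), against 1164 of the 9153 genes with a candidate (12.7%). A candidate of any signal, the value the choice rests on, was present at 12.8% of the chemoreceptor genes, against 45.8% of all protein-coding genes. Of the 10, 7 had a gene for a tRNA, a small nucleolar RNA (snoRNA), a small nuclear RNA (snRNA) or a microRNA within 200 bp of the strongest summit. None of the 158 members without a thresholded summit had a gene of those types that close. Among all 1164 genes with a thresholded summit the number was 141 (12.1%), and among the 7989 others it was 118 (1.48%). With RNA genes of any type except piRNA counted, it was 7 of the 10 members, against 24.1% of the 1164. Of the 158 members it was 3 (1.90%), against 6.48% of the 7989. Over all members this share was 5.95%, below the 8.72% of all genes with a candidate. The part of these RNA genes in the signal was not tested. Every candidate within 200 bp of any RNA gene except piRNA genes was also left out, which can only lower a count. Then 3 of 160 chemoreceptor genes (1.88%) had a thresholded summit, against 890 of 8640 genes in all (10.3%).

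The reference sequence under 6 of the 7 summits near RNA genes is shown because it places the RNA gene and the summit in the same window. Each line is the plus strand of WBcel235 (the build of the lists, there named ce11) from the RefSeq genome, 201 bases long with the summit in the middle, and capitals mark bases inside an annotated RNA gene other than a piRNA gene.
srh-269, chrV:16592247-16592447: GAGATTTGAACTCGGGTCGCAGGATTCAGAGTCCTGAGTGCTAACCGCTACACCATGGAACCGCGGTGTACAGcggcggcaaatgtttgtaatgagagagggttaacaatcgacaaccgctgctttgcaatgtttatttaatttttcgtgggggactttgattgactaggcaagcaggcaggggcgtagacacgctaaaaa
srxa-8, chrX:13307973-13308173: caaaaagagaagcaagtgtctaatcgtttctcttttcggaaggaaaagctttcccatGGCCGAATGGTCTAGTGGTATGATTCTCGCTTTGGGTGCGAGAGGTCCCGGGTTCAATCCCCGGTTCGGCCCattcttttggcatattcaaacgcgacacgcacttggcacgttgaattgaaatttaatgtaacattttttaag
srz-97, chrV:14468449-14468649: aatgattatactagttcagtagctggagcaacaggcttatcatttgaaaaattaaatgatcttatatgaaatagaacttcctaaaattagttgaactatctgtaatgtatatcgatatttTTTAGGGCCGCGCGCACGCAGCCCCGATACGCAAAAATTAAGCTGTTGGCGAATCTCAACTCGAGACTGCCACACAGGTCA
srh-70, chrII:12519061-12519261: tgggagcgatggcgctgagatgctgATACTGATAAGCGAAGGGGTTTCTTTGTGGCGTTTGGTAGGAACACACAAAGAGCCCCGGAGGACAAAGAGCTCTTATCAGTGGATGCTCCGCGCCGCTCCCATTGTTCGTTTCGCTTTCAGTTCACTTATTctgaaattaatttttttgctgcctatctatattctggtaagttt
srv-16, chrIV:15933175-15933375: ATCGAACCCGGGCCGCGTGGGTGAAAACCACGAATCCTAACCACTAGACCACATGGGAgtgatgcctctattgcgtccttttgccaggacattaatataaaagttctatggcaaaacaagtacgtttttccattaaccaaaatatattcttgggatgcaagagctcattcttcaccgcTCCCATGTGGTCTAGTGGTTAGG
srd-44, chrX:12337912-12338112: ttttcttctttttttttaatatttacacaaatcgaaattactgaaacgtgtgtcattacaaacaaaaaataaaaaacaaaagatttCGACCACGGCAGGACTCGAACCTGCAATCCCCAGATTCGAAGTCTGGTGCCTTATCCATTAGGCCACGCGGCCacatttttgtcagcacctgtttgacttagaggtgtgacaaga

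In the srxa-8 and srd-44 windows the summit lay inside the tRNA gene, and in the srh-70 window inside a snoRNA gene. For srh-269 the capitals end 28 bp from the summit, and for srz-97 they begin 20 bp from it. In the srv-16 window capitals stand at each end, from a pair of divergently transcribed tRNA genes with the summit between them.

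The members near tRNA genes were srh-269, srxa-8, srv-16 and srd-44. The strongest of them, srh-269 (WBGene00005475), had a pooled signal of 162 (rank 426) 305 bp upstream of its start, 39 bp from the tRNA gene WBGene00014499. Its region overlapped candidates of signal 109 (rank 277) in replicate 1 and 53.3 (rank 854) in replicate 2. For srxa-8 the pooled signal was 107 (rank 970), and the summit lay 772 bp downstream of the start in an intron of the receptor gene that holds the tRNA gene WBGene00014479. The ranks of its region were 929 in replicate 1 and 1299 in replicate 2. The srv-16 summit, of signal 85.6 (rank 1467), also lay in an intron of the receptor gene, 639 bp downstream of the start. It ranked 1039 in replicate 1 and 3760 in replicate 2. The weakest of the 10 was srd-44, with a signal of 81.5 (rank 1615) 428 bp upstream of the start, and ranks of 1670 in replicate 1 and 2452 in replicate 2. In each replicate as many of the strongest regions as the thresholded list holds are called its top regions here, and these last 2 members had a top region in replicate 1 but not in replicate 2. Of all members, 2.38% had a tRNA gene this close, against 1.55% of all genes with a candidate. Many tRNA genes have near-identical copies, as do receptor genes, and no source used here states where reads matching several copies were counted.

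The members near snoRNA or snRNA genes were sre-23, srz-97 and srh-70. The highest signal of any member, 242 (rank 173), belonged to sre-23, where the summit lay 593 bp upstream of the start and 34 bp from the snoRNA gene ZK265.10. This region ranked 129 in replicate 1 and 234 in replicate 2, and the nearest other protein-coding start, that of ZK265.7, lay 2507 bp from the summit. The srz-97 region, of signal 106 (rank 982), lay 303 bp upstream, 20 bp from the snRNA gene F08H9.11. Its ranks were 1291 in replicate 1 and 652 in replicate 2. At srh-70 the signal was 100.4 (rank 1080), 302 bp upstream of the start and inside the snoRNA gene T21B4.20, with the microRNA gene mir-77 at a distance of 107 bp. It ranked 1142 in replicate 1 and 874 in replicate 2, so all 3 had a top region in each replicate.

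The nearest other protein-coding starts to these 7 summits lay between 682 bp (clec-57, beside srz-97) and 2999 bp (cpl-1, beside srh-269) away, with ceh-99 820 bp from the srh-70 summit. Another receptor gene was the neighbour at srxa-8 (srd-43, 2229 bp) and at srd-44 (srd-48, 1904 bp).

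The other 3 members with a thresholded summit, sri-5, srh-16 and sre-1, had no RNA gene that close. Both sri-5 and sre-1 shared their upstream stretch with a divergently transcribed gene that is no chemoreceptor gene. The same held for srz-97 with clec-57 and for srh-70 with ceh-99. Divergent neighbours of this kind were not counted over all genes. Another protein-coding start, on either strand, lay within 1000 bp of the strongest summit for 51.8% of all genes with a thresholded summit. The sri-5 summit, of signal 202 (rank 268), lay 236 bp upstream of sri-5 and 496 bp from the start of rsr-1, the gene of an SR-related splicing coactivator. Its ranks were 299 in replicate 1 and 286 in replicate 2. For srh-16 the signal was 183 (rank 326), 72 bp upstream of its start. The ranks were 349 in replicate 1 and 369 in replicate 2, so the sri-5 and srh-16 regions each had close ranks in both replicates. The sre-1 summit, of signal 112 (rank 888), lay 894 bp upstream of sre-1 but 100 bp from the start of B0495.9. It ranked 953 in replicate 1 and 882 in replicate 2. Reporters for sre-1 are used as a marker of the ADL sensory neurons. The window of sre-1, 50 bp on each side of the summit, is shown because it carries no RNA gene. It held none of the 6 motifs searched below.
sre-1, chrII:7708760-7708860: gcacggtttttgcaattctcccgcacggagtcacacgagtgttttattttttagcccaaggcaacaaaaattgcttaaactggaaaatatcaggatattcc

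The windows printed in full for these 7 members contain no annotated coding or untranslated exon.

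Below the threshold, srh genes led. The next 3 members were srh-2 with a signal of 76.2 (rank 1843), srh-282 with 73.0 (rank 2001) and srh-76 with 70.2 (rank 2129). The srh-2 summit was nearer to the glyoxylate cycle gene icl-1, 279 bp from its start and inside its coding sequence. The srh-282 summit lay 39 bp from the start of sma-10, the gene of a regulator of BMP-type signalling. For srh-76, the nearest other protein-coding start, that of the collagen gene col-140, lay 3897 bp from the summit. Then came srw-88 at 61.3 (rank 2754), in its own coding exon, and srbc-58 at 55.1 (rank 3399) and str-141 at 55.0 (rank 3417), each in an intron of its own gene about as far downstream of the start, at 182 and 202 bp. The summit for srh-89, also at 55.0, lay 884 bp upstream and 204 bp from F25E5.1. The last of the 10 strongest members without a thresholded summit were sre-13 at 53.0, srh-308 at 49.0, in the coding exon of the metallothionein gene mtl-2, and sru-35 at 47.2. The sre-13 summit lay within 200 bp of the noncoding RNA gene lfor-1. The replicates ranked several of these differently. The srh-76 region ranked 5915 in replicate 1 and 1124 in replicate 2, and the srw-88 region 11179 in replicate 1 and 1661 in replicate 2, which put both among the top regions of replicate 2. The srh-282 region overlapped a candidate of rank 1684 in replicate 2, but the summit of that candidate was not within 1000 bp of srh-282. The srh-308 region overlapped a candidate of rank 3898 in replicate 1 and none in replicate 2.

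**Figure D1:**
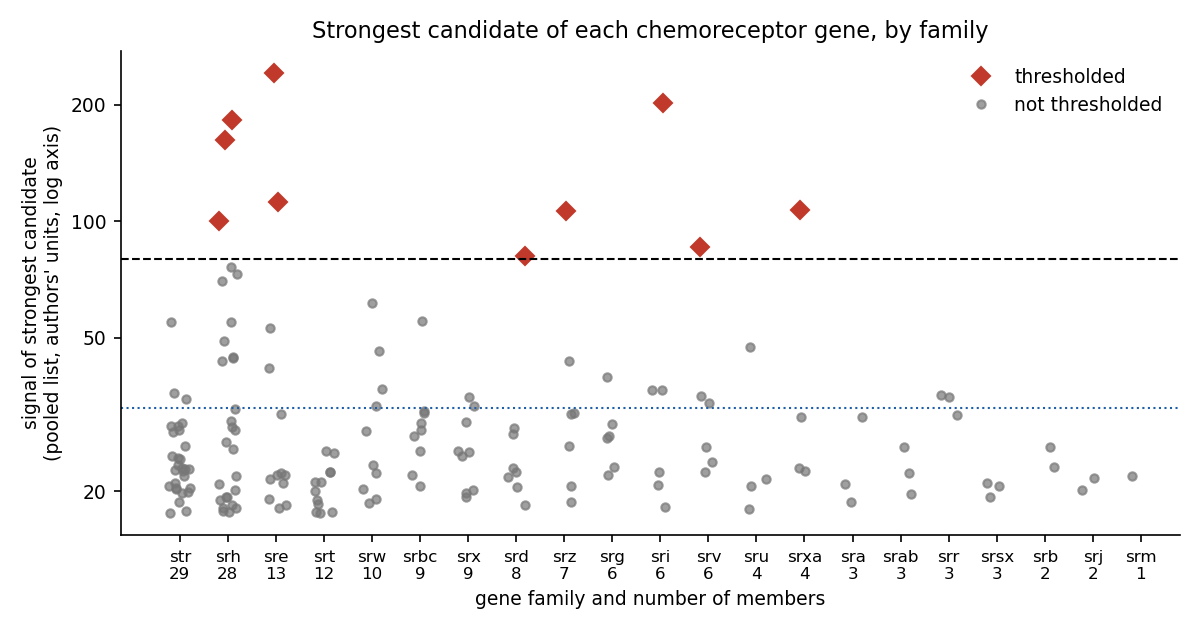
Signal of the strongest candidate within 1000 bp of the start (log axis, authors' units) for each of the 168 members, by family with the number of members under its name. Diamonds are the 10 members with a thresholded summit, circles the others, the dashed line the lowest thresholded signal (79.7) and the dotted line the median over all genes with a candidate (32.8). No str, srt or srw member reaches the dashed line, and 3 srh members do.

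Most members had their strongest candidate in the lower part of the list. The median signal of the strongest candidate was 23.4 over the 168 members, with quartiles of 20.6 and 31.9, against a median of 32.8 and quartiles of 24.3 and 51.5 over the 9153 genes. The median rank was 19841.5 for members and 10287 for all genes. Of the members, 56 (33.3%) stood at ranks 22501 to 30000, against 15.4% of all genes. At ranks 1687 to 7500 stood 17 members (10.1%), against 27.6% of all genes.

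**Figure D2:**
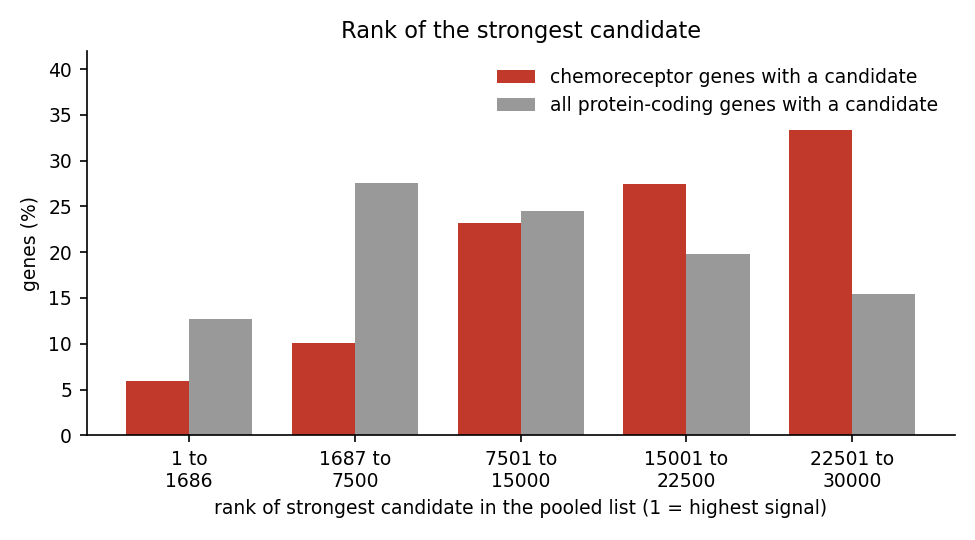
Share of genes (%) by the rank of their strongest candidate in the pooled list, for the 168 chemoreceptor genes and for all 9153 protein-coding genes with a candidate. The classes differ in width, and the thresholded ranks, the narrowest class, hold the lowest share of members (5.95%) and of all genes (12.7%). Ranks 22501 to 30000 hold 33.3% of members and 15.4% of all genes.

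Thresholded summits were scattered over 7 families, and the median signal of each larger family lay far below the threshold. Members came from 21 of the 22 families, and srn, which has 1 gene, had none. The largest contributions were 29 of 193 str genes (15%), 28 of 220 srh genes (12.7%), 13 of 54 sre genes (24.1%) and 12 of 61 srt genes (19.7%). The srh family held 3 thresholded members and sre 2, while srd, sri, srv, srxa and srz had 1 each. Median signals in families with at least 5 members ran from 20.6 in srt to 31.7 in srz. In srt, none of the 12 exceeded 25.5, the signal of srt-29 (rank 17064), and 1 of the 12 was overlapped by a candidate in each replicate. Among str genes the median was 22.9 and the highest value 55.0. The strongest srg member was srg-14 (39.6) and the strongest srx member srx-21 (35.0), with summits in coding exons of the collagen gene col-58 and the F-box gene fbxa-72. By superfamily, 21 of 124 Sra genes (16.9%) had a candidate, 41 of 309 Srg genes (13.3%), 74 of 587 Str genes (12.6%) and 32 of 289 solo genes (11.1%). Thresholded members numbered 2, 2, 5 and 1 in that order.

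Replicates shared the strong regions and few of the weak ones. The pooled region was overlapped by a candidate of replicate 1 for 102 members (60.7%) and of replicate 2 for 88 (52.4%), by both for 57 (33.9%) and by neither for 35 (20.8%). Over all genes with a candidate, 54.5% were overlapped by both and 7.76% by neither. All 10 members with a thresholded summit were overlapped in both replicates, and of the other 158 members 47 (29.7%) were. This split was not counted over all genes. Because the thresholded list is labelled as made by IDR, overlap of its regions in both replicates may be built in. The share overlapped in both replicates fell from the highest ranks to the lowest, in members and in all genes alike. At ranks 1 to 7500, 26 of 27 members (96.3%) were overlapped in both, against 93.0% of all genes. At ranks 7501 to 15000 the shares were 59.0% of 39 members and 51.0% of all genes, at 15001 to 22500 they were 10.9% of 46 and 18.3%, and at 22501 to 30000 they were 5.36% of 56 and 5.88%.

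**Figure D3:**
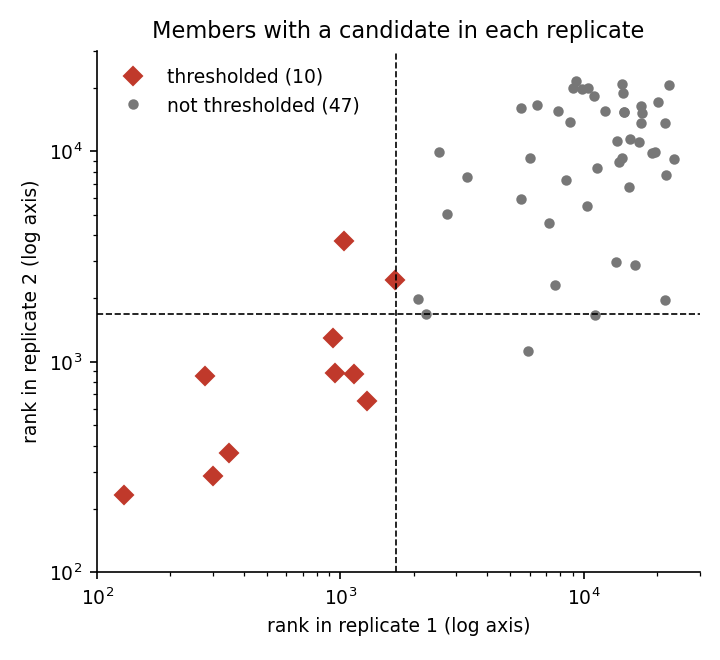
Rank of the overlapping candidate in replicate 1 (x) and replicate 2 (y), both on log axes, for the 57 members overlapped in both replicates. Diamonds are the 10 members with a thresholded summit and dashed lines mark the lowest rank of the top regions. The thresholded members lie at ranks 129 to 1670 in replicate 1 and 234 to 3760 in replicate 2.

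Applied to each replicate's own list, the rule chose 176 chemoreceptor genes in replicate 1 and 176 in replicate 2, of which 68 were chosen in both. In all, 314 of the 1309 genes had a candidate in at least 1 of the 3 lists, and 58 had one in each. Taking each replicate's top regions in place of the thresholded list, 10 of 176 (5.68%) had such a region in replicate 1, against 13.0% of the 8685 genes with a candidate there. In replicate 2 the number was also 10 of 176, against 15.4% of 7757. The replicates shared 8 of these genes: sre-23, sri-5, srh-16, srh-269, sre-1, srxa-8, srz-97 and srh-70. Of the genes with a strong region 8 of 10 were shared, and of the 176 genes with a candidate of any signal 68 were. These overlaps between lists were not counted over all protein-coding genes, so they cannot be called particular to chemoreceptor genes.

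Summits lay on both sides of the members' starts. The median distance of the strongest summit from the start was 534 bp for members and 366 bp for all genes, and 78 members (46.4%) had the strongest summit within 500 bp, against 62.2% of all genes. It lay upstream for 100 members (59.5%) and downstream for 68 (40.5%), near the 60.5% and 39.5% of all genes. Of the 10 thresholded members, 8 had it upstream, a share that was not counted over all genes with a thresholded summit. A single candidate lay within 1000 bp of 126 members (75%, against 57.3% of all genes), 37 had 2 candidates (22%, against 31.3%) and 5 had 3 or more (2.98%, against 11.4%). The summit was intergenic for 77 members (45.8%, against 50.4% of all genes), in a coding exon for 41 (24.4%, against 20.3%), in an intron for 41 (24.4%, against 20.3%) and in an untranslated exon for 9 (5.36%, against 8.95%). For 68 members it lay inside the member's own gene and for 23 inside another gene only, 3 of which were inside another chemoreceptor gene. These counts were not made over all genes, and a summit just downstream of a start falls inside that gene by its position. Just inside the limit of 1000 bp lay srh-40 (nearest summit at 984 bp, signal 20.9), str-160 (984 bp, 34.7) and srh-179 (989 bp, 25.8). Just outside it lay srxa-9 (1007 bp, signal 71.7), srz-25 (1013 bp, 21.1) and srbc-34 (1014 bp, 18.7). Within 500 bp 88 chemoreceptor genes had a summit, and within 2000 bp 324 did.

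**Figure D4:**
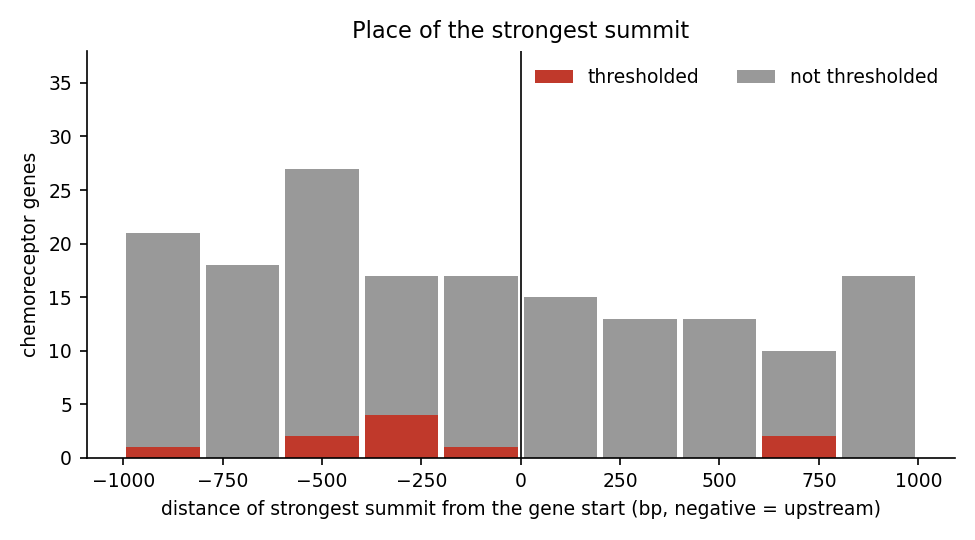
Number of members by the distance of the strongest summit from the gene start, in bins of 200 bp, with upstream distances negative. Upstream bins hold between 17 and 27 members and downstream bins between 10 and 17, and 4 of the 10 thresholded members lie between 400 and 200 bp upstream. The bins were not counted over all genes.

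For 17 members (10.1%) another protein-coding start was nearer to the strongest summit, against 1463 (16%) of all genes with a candidate. In these the summit was upstream of the member in 16 of 17, at a median of 884 bp. A split on a nearer start favours long distances by its construction, and neither value was counted over all genes. The median signal of the 17 was 35.1, against 23.0 for the 151 members whose own start was nearest. Over all genes the corresponding medians were 38.5 and 32.1. The nearer gene was another chemoreceptor gene in 2 cases: sri-50 and sri-53 share 1 summit of signal 36.6, which is nearer to sri-50, and the summit for str-102 is nearer to str-88. The other 15 were unrelated genes, among them icl-1, sma-10, mtl-2 and the collagen gene col-161. Of the 17, 1 had a thresholded summit (sre-1), and of the 151, 9 had. Over all genes, 21.2% of those with another start nearer had one and 11.1% of the others. With each summit given only to its nearest protein-coding start, 152 chemoreceptor genes kept a candidate and 9 of them (5.92%) a thresholded one, against 10.5% of the 8165 genes with a candidate under that rule. With starts of genes of any other type except piRNA counted too, pseudogenes included, the number was 32 members (19%). This wider count was not made over all genes, so it cannot be set against the 16% above.

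Chromosome V carries 890 of the 1309 chemoreceptor genes, many of them in clusters. On V 99 of 890 (11.1%) had a candidate, on II 22 of 169 (13.0%), on III 5 of 31 (16.1%), on IV 26 of 152 (17.1%), on X 6 of 33 (18.2%) and on chromosome I 10 of 34 (29.4%). Over all protein-coding genes the shares were 33.7% on V and between 43.1% and 58.0% on the other chromosomes, so V was lowest there too. Members with a thresholded summit numbered 3 on V, 2 each on I, II and X, 1 on IV and 0 on III. On V these were 3 of 99 members, against 10.9% of all genes with a candidate there, on II 2 of 22, against 13.7%, on III 0 of 5, against 14.6%, and on IV 1 of 26, against 11.2%. On chromosome I they were 2 of 10, against 13.0%, and on X 2 of 6, against 13.3%, so the members' share was above that of all genes on I and X and below it on the others. These counts are small. Of the 271 chemoreceptor genes with no other receptor start within 10 kb, 67 (24.7%) had a candidate. The share was 12.9% of 489 with 1 to 2 others that close, 6.85% of 496 with 3 to 5, and 7.55% of 53 with 6 or more. On V alone the shares were 21.9%, 12.4%, 5.98% and 7.89%. Over all 1309 genes the nearest candidate summit lay at a median of 5770 bp from the start, against 1239 bp over all protein-coding genes.

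**Figure D5:**
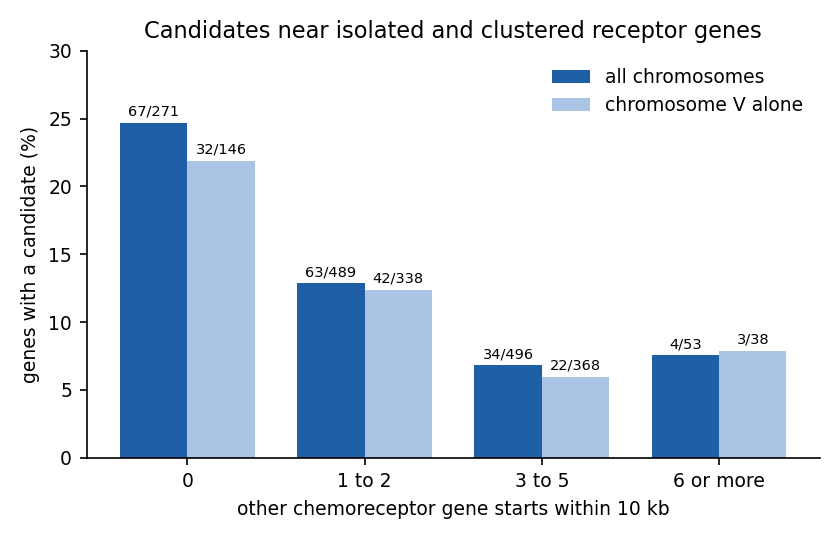
Share of chemoreceptor genes with a candidate (%), by the number of other chemoreceptor starts within 10 kb, for all chromosomes (dark) and for chromosome V alone (light), with the counts above each bar. The share is 24.7% for genes with none nearby and 6.85% for genes with 3 to 5.

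Of 18 receptor genes listed as known for an odour, a pheromone or a neuron, 2 (11.1%) were members, close to the 12.8% of all chemoreceptor genes with a candidate. They were sre-1, above, and srb-6, a receptor linked to repellents in worms, whose summit of signal 23.2 (rank 20170) lay 957 bp downstream of the start in a coding exon. For the ascaroside pheromone receptor genes srg-36 and srg-37 the nearest summit was 1 shared candidate of signal 30.7, at 2343 and 1777 bp. For srbc-64 and srbc-66, pheromone receptor genes of the ASK neurons, the nearest summits were at 1707 and 1325 bp, with signals of 23.6 and 24.1. The neuron markers str-1, str-2, str-3, sra-6, sra-9, srh-142 and srsx-3 had their nearest summits at distances between 4563 bp (str-2) and 35443 bp (srsx-3). Near the limit lay srh-220, at 1060 bp with a signal of 31.0. The nearest summit to str-217, a gene needed for the response to the repellent DEET, had a high signal (119, rank 793) but lay 34447 bp away.

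Some genes of chemosensory signalling, cilia and sensory neurons, not all of them acting downstream of the receptors, had regions of high signal. In a list of 63 genes of G proteins, channels, regulators, receptor trafficking, cilia and sensory neuron fate, 21 (33.3%) had a candidate, against 45.8% of all protein-coding genes, and 6 of the 21 (28.6%) had a thresholded summit, against 12.7% of all genes with a candidate. The median signal was 40.0. The highest was that of egl-30, the gene of the Gq alpha subunit, at 252 (rank 164), 57 bp upstream of its start. Next came gsa-1, the gene of Gs alpha, at 195 (rank 291), and eat-16, a regulator of G protein signalling, at 138 (rank 584). The other 3 were gpa-1, a G alpha gene of sensory neurons (112, rank 883), the cilia transcription factor gene daf-19 (85.7, rank 1464) and the receptor kinase gene grk-1 (85.1, rank 1490). Many of these genes, egl-30 and gsa-1 among them, act in many tissues. For odr-8, which acts in receptor trafficking, the signal was 26.9 (rank 15489), while odr-10, the diacetyl receptor gene, and odr-4 had no candidate.

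Median GC content within 50 bp of the strongest summit was 34.7% for members, 38.6% for all genes with a candidate, 48.5% for the 10 thresholded members and 49.0% for all genes with a thresholded summit. Searched on both strands of the same windows, GAGAG lay in 14 of the members' 167 distinct windows (8.38%), against 18.7% of all 29977 nuclear candidates, and in 3 of the 10 thresholded windows, against 38.6% of 1663. GGCGC lay in 11 (6.59%), against 8.39%, and in 3 of the 10, against 23.8%. The E-box CACGTG lay in 4 (2.40%), against 2.48%, and the E-box CACCTG in 7 (4.19%), against 2.81%, and neither lay in any of the 10. GAAGCC, the core of sites of the sensory neuron factor CHE-1, lay in 3 (1.80%), against 3.43%, and in 1 of the 10, against 2.10%. GTTCGANNC, the box B of tRNA promoters, lay in 3 (1.80%), against 1.42%, and in 1 of the 10, that of srd-44, against 6.73% of the 1663. A match only says that these letters are in the window.

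Nuclear hormone receptor genes, a family of transcription factors that is also expanded in worms, had candidates at 115 of 269 genes (42.8%), with a median signal of 27.7 and a thresholded summit at 10 (8.70%). For cuticle collagen genes the numbers were 124 of 156 (79.5%), a median of 41.1 and 8 (6.45%). The chemoreceptor genes, at 12.8%, 23.4 and 5.95%, had the lowest share with a candidate and the lowest median signal of these 3 families, and their share of thresholded genes was close to that of the collagens.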

How the data were processed

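SPR-1 ChIP-seq lists from whole L4 larvae were used, from 2 replicates the labels call biological, in 1 group. The deposited candidate and thresholded lists give 1 signal value per region. Per the deposited text listings, regions are on ce11 and each list was made with a control alignment, which is not analysed here. The aligner, the peak caller, the value of the threshold and the scale of the authors' signal are stated in no source used here. The labels of the lists name IDR as the method of the threshold. The copies of the lists on an older build were not used, and 23 mitochondrial lines of the pooled list were left out.

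With Python 3.11.15, numpy 2.4.6, pandas 2.3.3 and matplotlib 3.10.9, each gene start of Ensembl release 115 (WBcel235, the same build) was given its strongest pooled summit within 1000 bp, and a replicate's candidate counted where it overlapped that region by at least 1 bp. RNA genes other than piRNA genes were searched within 200 bp of a summit, and 6 motifs within 50 bp of it on both strands. The rule was tested on simulated data. Named are all members with a thresholded summit or with a top region of a replicate, the next 10 by signal, the strongest of each family of 5 or more members, those nearest to the distance limit, and neighbours and transduction genes with a strong region. The members and lists were chosen with earlier results of these data known. Of 64 names in the transduction list 63 matched a gene, and ttx-4 did not. Distances of 500 and 2000 bp, other list lengths, each replicate alone, nearest starts only and the omission of candidates near tRNA or RNA genes were tried as alternatives. The neighbour of 1 member is not reported here.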

Additional observations from a re-analysis of the deposited data

How the results depend on the processing

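Of 39 alternative values, 24 lay within 1.5 times the reported count or, for the median signal and the share with another start nearer, within the replicate spread (1 SD), and 15 did not. For the median signal that spread comes from the 2 replicate lists, which are not on the pooled scale. It therefore does not measure the spread of the pooled median. Within 500 bp, 88 genes had a candidate, 6 had a thresholded summit, 51 had the summit upstream, and another start was nearer for 4.55%. Within 2000 bp these values were 324, 22, 184 and 31.2%. The count of 10 thresholded members was 6 with candidates near tRNA genes left out, 3 with candidates near any RNA gene left out (chosen after seeing the data), and 4 with a list 0.5 times as long. It was 10 without either replicate, where 176 genes had a candidate and another start was nearer for 10.2% to 11.9%. The median signal was 15 without replicate 1 and 17.9 without replicate 2, in lists whose signal is not on the pooled scale. With starts of any gene type except piRNA counted, another start was nearer for 19% of members. A wider distance, a shorter list or the omission of candidates changes a count by its construction, and counting more types of start can only raise that share. For the other changes the cause was not tested. No symbol with a dot occurred, so adding such symbols gave no value. No paired analysis was possible because there was only 1 group. Read depth is unknown, so the counting error of a signal cannot be given.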
